A study of Mus musculus with 4 samples.

Results

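The transcripts described here come from 8 genes, the glucocorticoid receptor gene Nr3c1 and 7 genes known to respond to glucocorticoids, Fkbp5, Tsc22d3, Zbtb16, Klf9, Sgk1, Cebpd and Cebpb, out of 32285 genes in the count tables. They were selected on earlier values from these same libraries, in which Fkbp5 and Cebpd differed between genotypes in beta cells, so their levels and ratios below are a description and no test supports them. Single-cell RNA was measured with the 10x Chromium system in islets of Langerhans from female mice on a C57BL/6J background. All animals, WT littermates included, received diphtheria toxin in 4 injections given 48 hours apart from postnatal day 2, were weaned at 21 days onto regular chow and were taken at 6 months or 1 month of age. CCR2-DTR+/- animals carry the diphtheria toxin receptor under control of Ccr2, a chemokine receptor gene of monocytes and other leukocytes. The toxin is thus directed at CCR2-expressing cells in newborns, and the cells sequenced are those of animals that had grown up since. The groups were CCR2-DTR at 6 months, WT at 6 months, CCR2-DTR at 1 month and WT at 1 month, with 1 library each of 300 islets pooled from 2 to 3 females. With 1 library per group there is no replicate check, no test between groups was possible, and every interval below covers counting error only.

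Glucocorticoids enter cells freely and bind a receptor held in the cytoplasm by heat shock proteins and co-chaperones. The bound receptor moves to the nucleus and binds DNA directly, commonly at inverted repeats of a short motif, or acts through other transcription factors. Fkbp5, a co-chaperone that lowers the receptor's hormone binding, Tsc22d3, which encodes the anti-inflammatory protein GILZ, and Zbtb16, which encodes the transcription factor PLZF, are among the transcripts most often used as readouts of the hormone in many tissues. In islets, glucocorticoid excess is known to impair insulin secretion and to cause insulin resistance in the whole animal.

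Fkbp5 lies on chromosome 17 at 28399094 to 28517527 (minus strand, GRCm38 with GENCODE vM21), Tsc22d3 on chromosome X at 140539528 to 140600659 (minus strand) and Zbtb16 on chromosome 9 at 48654297 to 48836222 (minus strand). Klf9 lies on chromosome 19 at 23141226 to 23168134 (plus strand), Sgk1 on chromosome 10 at 21882184 to 21999903 (plus strand), Cebpd on chromosome 16 at 15887286 to 15891031 (plus strand) and Cebpb on chromosome 2 at 167688915 to 167690418 (plus strand). Upstream sequence was at hand for 5 of the 8 genes, in 12 windows of the 250 bases before a RefSeq transcript start on GRCm38.p6, and Zbtb16, Cebpd and Nr3c1 had no window. The inverted repeat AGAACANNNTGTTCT, the form the receptor is known to bind as a dimer, was in 1 of the 12 windows, upstream of Sgk1, and in 0.00913% of 32851 windows over all genes. Its single arm AGAACA, read on either strand and counted inside the inverted repeat too, was in 4 of the 12 windows, 3 of Sgk1 and 1 of Tsc22d3, and in 16.1% of all windows. A match describes these letters and is not a site shown to be used. The 3 windows below show the range among the genes, from no match (Fkbp5, chr17:28486150-28486399, minus strand, before a start inside the annotated gene) through the arm alone (Tsc22d3, chrX:140600523-140600772, minus strand, first base 185 bases before the start) to the inverted repeat (Sgk1, chr10:21993640-21993889, plus strand, first base 189 bases before the start). Capitals mark the matches to the arm, read 5′ to 3′ on the strand of the gene.
Fkbp5: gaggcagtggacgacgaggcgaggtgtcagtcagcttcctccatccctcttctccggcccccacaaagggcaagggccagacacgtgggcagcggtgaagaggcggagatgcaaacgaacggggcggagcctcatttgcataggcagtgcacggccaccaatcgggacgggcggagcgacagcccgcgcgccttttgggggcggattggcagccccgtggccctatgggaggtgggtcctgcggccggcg
Tsc22d3: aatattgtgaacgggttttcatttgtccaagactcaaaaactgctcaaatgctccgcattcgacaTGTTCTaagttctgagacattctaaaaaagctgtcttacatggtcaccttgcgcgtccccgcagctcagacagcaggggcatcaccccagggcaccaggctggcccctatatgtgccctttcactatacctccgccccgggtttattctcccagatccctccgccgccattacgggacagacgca
Sgk1: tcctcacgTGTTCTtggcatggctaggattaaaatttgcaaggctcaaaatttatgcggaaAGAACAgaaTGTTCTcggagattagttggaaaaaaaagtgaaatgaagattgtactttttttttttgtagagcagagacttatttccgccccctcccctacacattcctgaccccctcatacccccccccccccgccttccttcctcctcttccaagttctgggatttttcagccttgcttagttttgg

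After filtering, 25221 cells remained, 4256 from CCR2-DTR at 6 months, 3638 from WT at 6 months, 8600 from CCR2-DTR at 1 month and 8727 from WT at 1 month, with a median of 8848 to 14744 UMIs (unique molecular identifiers, 1 per captured transcript) per cell. Clusters were named from marker genes, and 6 classes, each with at least 50 cells in every library, were compared: beta-like (689 to 3596 cells per library), alpha-like (794 to 2658), delta-like (320 to 700), endothelial-like (317 to 669), mesenchymal-like (58 to 404) and macrophage-like (95 to 165). Gamma-like cells (112 to 300) also passed 50 cells but were not among the classes set for comparison and are described by level only. The other named classes (B-like, T-like and acinar-like) were each below 50 cells in most libraries, and unnamed clusters were not compared. Levels are in CPM, the UMIs of a gene summed over the cells of a class and scaled to 1000000 UMIs of that class outside 8 islet hormone genes, because the hormones took 4.54% to 54.0% of a class's UMIs. Over all UMIs, hormones included, Ins2 was at 291848 to 344301 CPM in beta-like cells and Gcg at 245274 to 284091 CPM in alpha-like cells. A gene was called higher or lower between a pair of libraries at a ratio of at least 1.5-fold with an exact conditional 95% interval that excluded 1, given at least 10 CPM in 1 of the libraries and 10 UMIs over both. Barcodes were shared between libraries at 0.118% to 0.422% of the smaller library. An unnamed cluster of cells with few UMIs held 642 and 1036 cells in the CCR2-DTR and WT libraries at 6 months, against 336 and 33 at 1 month, and was left out of all comparisons.

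Fkbp5, Zbtb16, Tsc22d3 and Klf9 were called higher in CCR2-DTR in 1 to 4 classes at each age and lower in 0. Cebpd was called in both directions at 6 months, and Nr3c1 was not called. Of 48 pairs of a gene and a class, 43 passed the floor on low values at each age. At 6 months, 12 pairs were called higher in CCR2-DTR and 2 lower. Over all 55146 pairs of any gene and class past the floor 2.95% were called higher and 2.64% lower. At 1 month, 17 pairs were called higher and 0 lower, against 2.59% and 1.79% of 57312 pairs. Ratios above 1 made up 46.6% of all pairs at 6 months and 53.6% at 1 month. Since the genes were chosen on these libraries, nothing is read from how far their counts stand above that background.

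**Figure D1:**
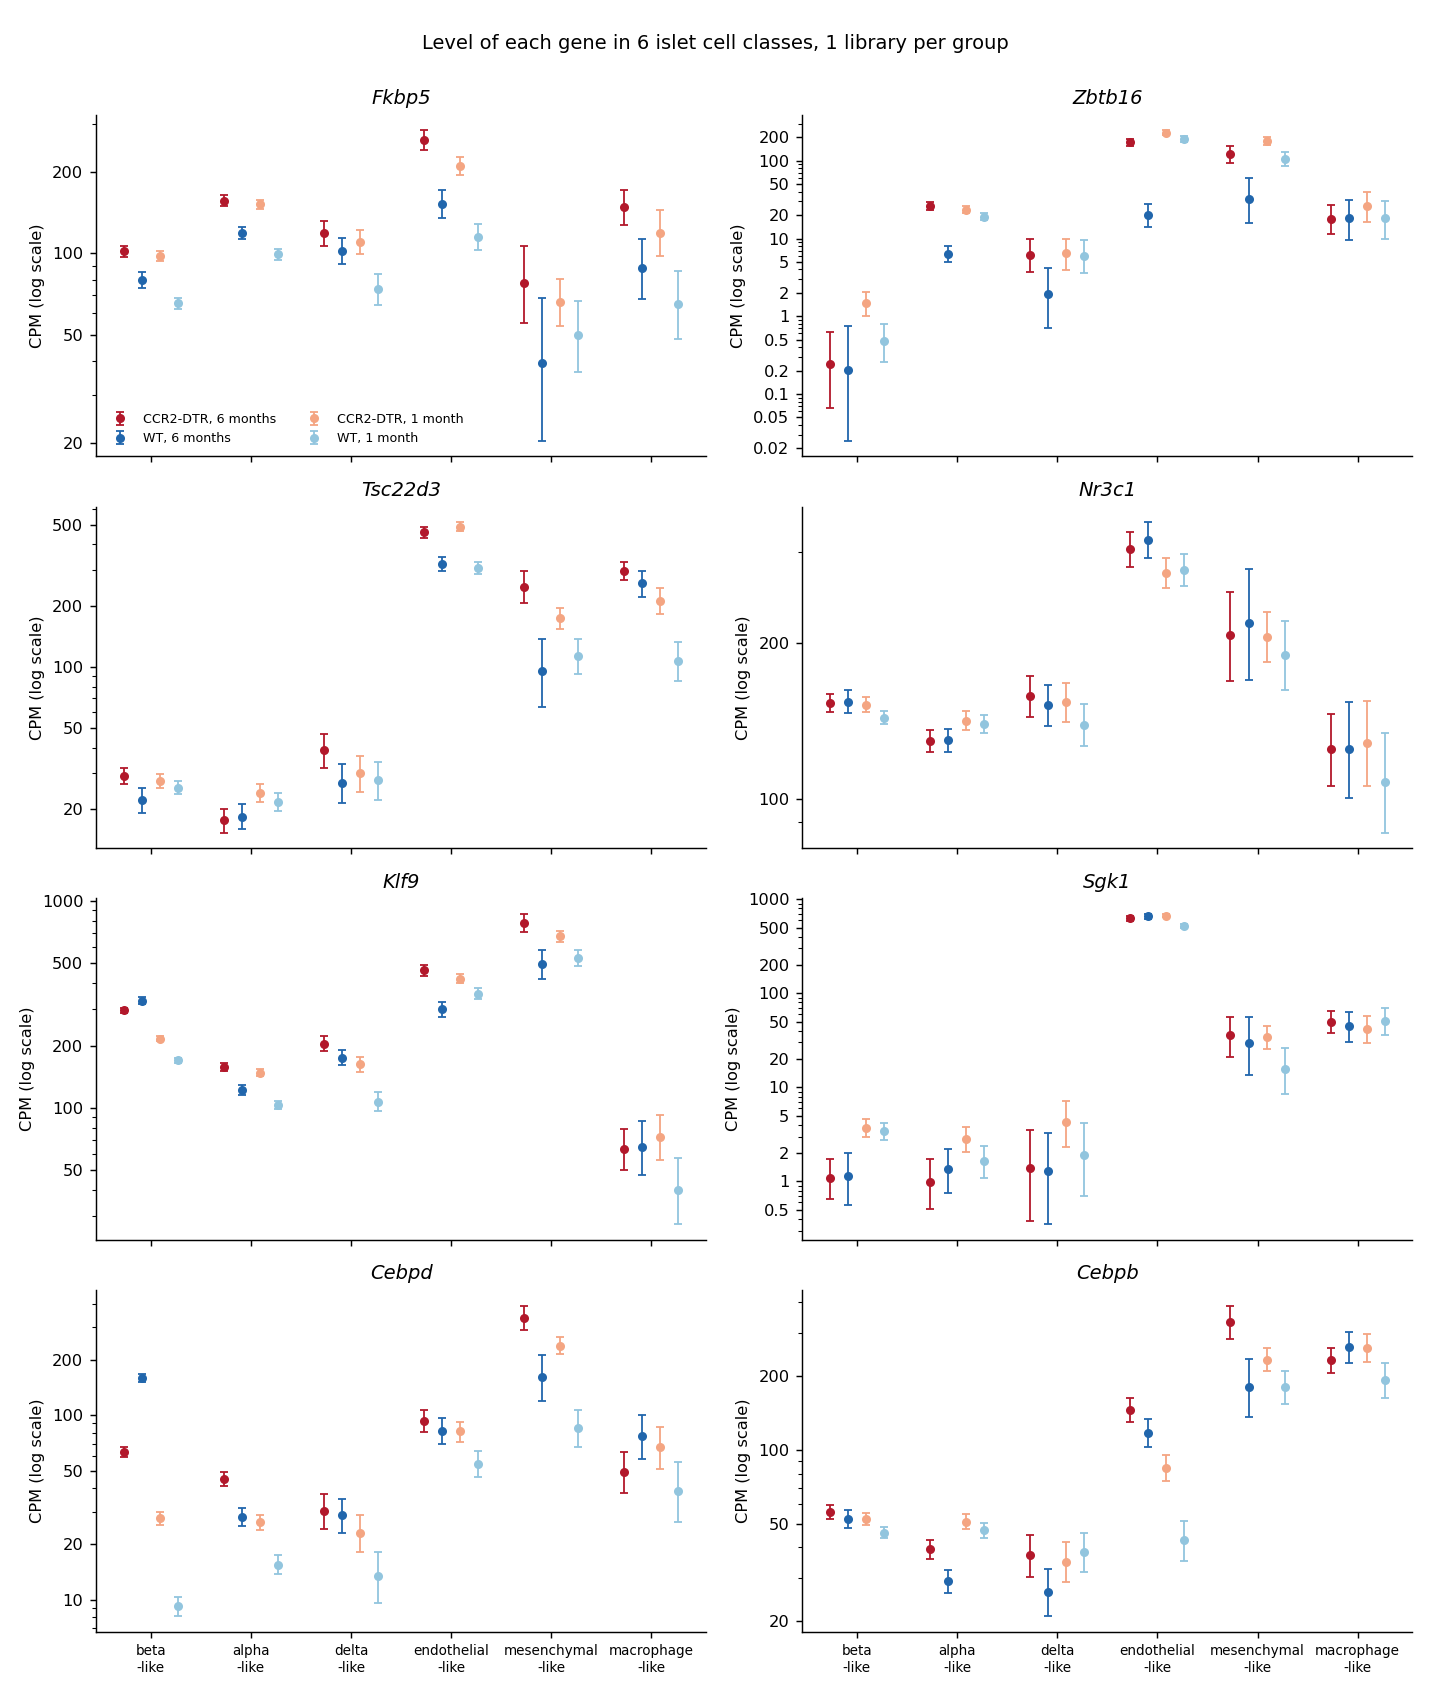
Level of each of the 8 genes (CPM outside the islet hormone genes, log axis) by cell class, 1 point per library with its 95% Poisson interval (counting error only). Fkbp5 is highest in the CCR2-DTR 6-month library in each of the 6 classes shown. Zbtb16 is lowest in the WT 6-month library in all of them but macrophage-like cells (in beta-like cells from 2 UMIs). Nr3c1 is at a similar level in the 4 libraries of each class.

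The receptor itself differed least. Nr3c1 was 304 CPM in endothelial-like cells of the CCR2-DTR 6-month library, 317 in WT at 6 months, 274 in CCR2-DTR at 1 month and 277 in WT at 1 month. In beta-like cells it was 153, 154, 152 and 144 CPM in the same order of libraries. It was past the floor in all 6 classes and called in 0 of them at either age, with log2 ratios of CCR2-DTR over WT between -0.08 and 0.06 at 6 months and between -0.02 and 0.25 at 1 month. Endothelial-like cells had the highest mean level over the 4 libraries (293 CPM), then mesenchymal-like (206 CPM) and beta-like cells (151 CPM), and macrophage-like cells the lowest (122 CPM). The ranges of the endothelial-like, mesenchymal-like and beta-like classes did not overlap, while the beta-like range overlapped the delta-like one and the delta-like range the gamma-like one.

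Of 17 other genes of receptor handling (chaperones, co-regulators, the mineralocorticoid receptor Nr3c2 and the enzymes Hsd11b1 and Hsd11b2, which regenerate and inactivate corticosterone), 78 pairs with a class passed the floor at 6 months, of which 5 were called higher in CCR2-DTR (6.41%) and 1 lower (1.28%), against 2.95% and 2.64% of all pairs. At 1 month 0 of 78 were called higher and 1 lower (1.28%), against 2.59% and 1.79%. Hsd11b1 in mesenchymal-like cells was 109.5 CPM in CCR2-DTR at 6 months and 45.8 CPM in WT at 6 months, against 28.8 and 27.8 CPM at 1 month, and was called higher at 6 months. That call rests on 55 and 14 UMIs. A cluster led by Col3a1, a fibroblast collagen, made up 34.3% of the class in CCR2-DTR and 8.62% in WT at 6 months. The part of this mix in the Hsd11b1 difference was not tested. In beta-like cells Hsd11b1 and Hsd11b2 were at or below 0.0444 CPM in every library. Nr3c2 in beta-like cells was 11.2 CPM in CCR2-DTR and 15.7 CPM in WT at 6 months, against 3.33 and 4.85 CPM at 1 month, and was called higher with age in both genotypes.

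Fkbp5 had a ratio of CCR2-DTR over WT above 1 in all 6 classes at both ages, with an interval that reached 1 in delta-like cells at 6 months and in mesenchymal-like cells at 1 month. In endothelial-like cells, where it was highest, its level was 262 CPM (95% interval 241 to 285) in CCR2-DTR at 6 months, 152 CPM (135 to 171) in WT at 6 months, 209.6 CPM (194 to 226) in CCR2-DTR at 1 month and 115 CPM (103 to 129) in WT at 1 month. The intervals of the 2 genotypes did not overlap at either age, and the ratio was 1.72-fold at 6 months (1.49 to 1.99) and 1.82-fold at 1 month (1.59 to 2.09). In beta-like cells Fkbp5 was 102 CPM in CCR2-DTR at 6 months and 79.7 CPM in WT at 6 months, against 98.1 CPM in CCR2-DTR and 65.4 CPM in WT at 1 month. The beta-like ratio was 1.27-fold (1.17 to 1.39) at 6 months, below the size of a call, and 1.5-fold (1.41 to 1.60) at 1 month, at the edge of it. Alpha-like cells, with 156, 119, 152 and 99.1 CPM in the CCR2-DTR 6-month, WT 6-month, CCR2-DTR 1-month and WT 1-month libraries, gave 1.31-fold at 6 months, not called, and 1.53-fold at 1 month, called.

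Macrophage-like cells had 148 CPM of Fkbp5 in CCR2-DTR and 88.4 CPM in WT at 6 months, and 119 and 65.0 CPM at 1 month, with a call at both ages (log2 ratios 0.74 and 0.88). The 6-month call was lost when each cell was given the same weight (0.41) or thinned to 2000 UMIs (0.29). Delta-like cells had 118 and 102 CPM at 6 months and 110.2 and 73.5 CPM at 1 month, and were not called at either age. Their 1-month log2 ratio of 0.58 stood just outside the size of a call and the beta-like one of 0.59 just inside it. Mesenchymal-like cells held little Fkbp5 at 6 months, 77.7 CPM in CCR2-DTR (39 UMIs) and 39.3 CPM in WT (12 UMIs), and were called at that age (0.98, interval 0.02 to 2.05). The ratio was 0.30 after thinning to 2000 UMIs, and the call was also lost with at most 10% mitochondrial UMIs (0.96) and without cycling cells (0.83). That class is made of a cluster led by Rgs5, a pericyte gene, and a cluster led by Col3a1, a fibroblast collagen. The Col3a1-led cluster made up 34.3% of it in CCR2-DTR and 8.62% in WT at 6 months, against 29.7% and 23.8% at 1 month. Within the Rgs5-led cluster Fkbp5 was 31.9 CPM in CCR2-DTR and 37.8 CPM in WT at 6 months, from 8 and 10 UMIs, so the mesenchymal-like difference was not seen there.

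Tsc22d3 was highest in endothelial-like cells, with 459 CPM in CCR2-DTR at 6 months, 322 CPM in WT at 6 months, 489 CPM in CCR2-DTR at 1 month and 306 CPM in WT at 1 month. Both CCR2-DTR libraries lay above both WT libraries, by a log2 ratio of 0.51 (0.37 to 0.66) at 6 months, which was not called, and 0.68 (0.56 to 0.80) at 1 month, which was. That 1-month call was lost after thinning to 2000 UMIs (0.58). Macrophage-like cells had 296 and 257 CPM in CCR2-DTR and WT at 6 months and 211 and 107 CPM at 1 month, so that the genotypes differed by 0.21 at 6 months and by 0.99, a call, at 1 month. In mesenchymal-like cells Tsc22d3 was 247 and 94.9 CPM at 6 months and 173 and 113 CPM at 1 month, called at both ages (1.38 and 0.61). The 1-month call was lost with each cell given the same weight (0.43), after thinning to 2000 UMIs (0.38) and at Leiden resolution 2 (0.56). Within the Rgs5-led cluster alone Tsc22d3 was 168 and 87.0 CPM at 6 months and 123.1 and 114 CPM at 1 month. In the endocrine classes Tsc22d3 was lower, from 22.1 to 29.0 CPM in beta-like, 17.6 to 24.1 CPM in alpha-like and 27.0 to 38.8 CPM in delta-like cells. No endocrine class was called at either age, although at 6 months the intervals of the log2 ratio excluded 0 in beta-like cells (0.40, 0.16 to 0.63) and delta-like cells (0.52, 0.10 to 0.95).

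Zbtb16 set the WT 6-month library apart from the other 3 libraries in endothelial-like, mesenchymal-like and alpha-like cells. In endothelial-like cells it was 174 CPM (157 to 192, 380 UMIs) in CCR2-DTR at 6 months, 20.1 CPM (14.2 to 27.6, 38 UMIs) in WT at 6 months, 229 CPM (213 to 247, 723 UMIs) in CCR2-DTR at 1 month and 192 CPM (176 to 209, 517 UMIs) in WT at 1 month. The ratio of CCR2-DTR over WT was 8.65-fold (6.19 to 12.4) at 6 months and 1.19-fold (1.07 to 1.34) at 1 month. The mesenchymal marker list summed to 3148 and 2960 CPM in endothelial-like cells of CCR2-DTR and WT at 6 months and to 7185 and 6224 CPM at 1 month. It includes Sparc, also a leading gene of the larger endothelial-like cluster, so the sum is not specific to mesenchymal cells. The part of these transcripts in the Zbtb16 values was not tested. In the larger endothelial-like cluster taken alone the levels were 169, 20.3, 232 and 192 CPM in the same order of libraries. After every cell was thinned to 2000 UMIs, Zbtb16 had a UMI in 30.4% of endothelial-like cells of CCR2-DTR at 6 months (35 shallower cells left out), 3.38% of WT at 6 months (21 left out), 35.8% of CCR2-DTR at 1 month (49 left out) and 32.2% of WT at 1 month (96 left out). Without thinning these shares were 53.9%, 9.78%, 58.3% and 48.6%. Beta-like cells, which had almost no Zbtb16, gave 0% of 1233 cells (a count of 0 allows up to 0.299% as an exact bound), 0% of 682 cells (up to 0.539%), 0.299% and 0.0842% at the same depth.

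The lower level of Zbtb16 in the WT 6-month library was found in other classes too. Alpha-like cells had 26.1 CPM in CCR2-DTR at 6 months, 6.35 CPM in WT at 6 months, 23.6 CPM in CCR2-DTR at 1 month and 19.2 CPM in WT at 1 month, and were called at 6 months at 4.10-fold (3.16 to 5.38). Mesenchymal-like cells had 121 CPM, 32.7 CPM (10 UMIs), 179.9 CPM and 107 CPM in the same order, and were called at both ages, with log2 ratios of 1.89 (0.92 to 3.02) and 0.75 (0.41 to 1.11). After thinning to 2000 UMIs the 6-month ratio was 0.81 and no longer called, and the 1-month call was lost with each cell given the same weight (0.51). Within their Rgs5-led cluster Zbtb16 was 104 and 30.3 CPM in CCR2-DTR and WT at 6 months and 165 and 98.2 CPM at 1 month. Gamma-like cells had 13.6, 2.68, 15.8 and 7.26 CPM and delta-like cells 6.23, 1.93, 6.43 and 6.05 CPM. These were below the floor of 10 CPM in the delta-like class. WT at 6 months was the lowest library in 6 of 7 classes, but in beta-like cells this rests on 2 UMIs in WT and 4 in CCR2-DTR at 6 months and does not set the libraries apart. Macrophage-like cells were the exception, with 18.1, 18.2, 26.1 and 18.2 CPM and 13 to 23 UMIs per library.

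**Figure D2:**
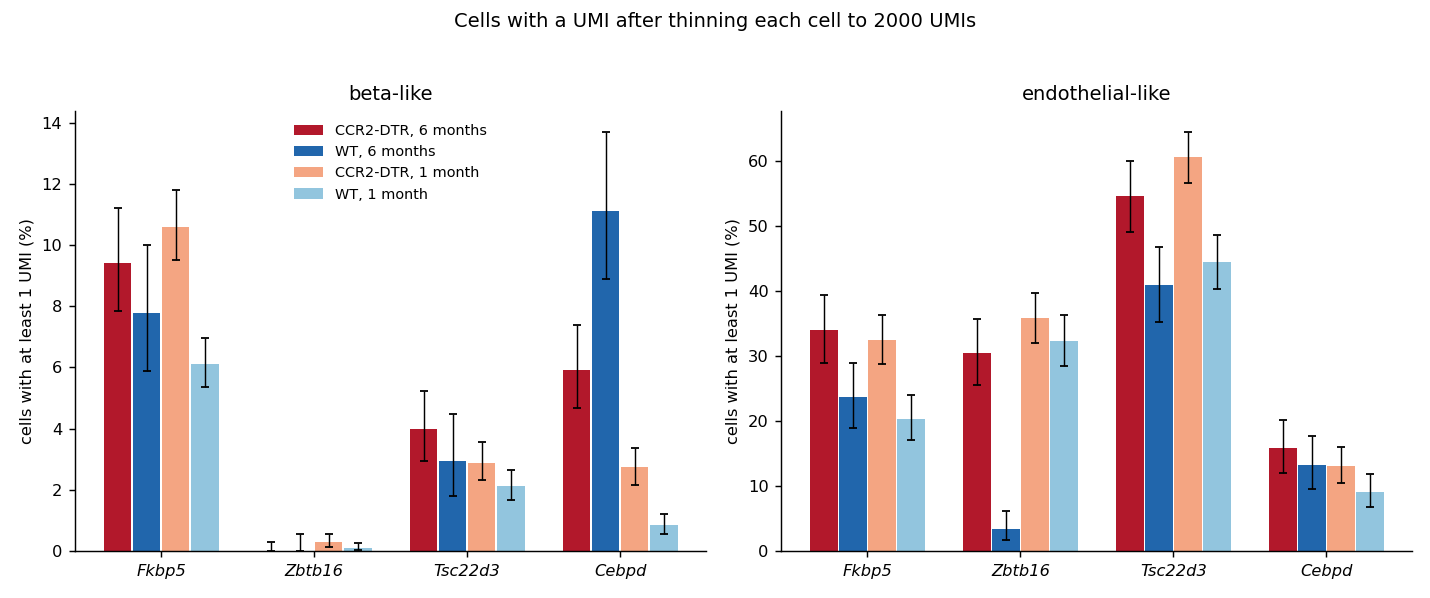
Percent of cells with at least 1 UMI of Fkbp5, Tsc22d3, Zbtb16 and Cebpd, with exact 95% binomial intervals (counting error only), after each cell was thinned to the same number of UMIs. In endothelial-like cells Zbtb16 is seen in 3.38% of cells of the WT 6-month library and in 30.4% to 35.8% of cells of the other 3.

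Klf9, a zinc finger repressor that also follows the daily rhythm of the hormone, was highest in mesenchymal-like cells, at 782 CPM in CCR2-DTR and 494 CPM in WT at 6 months and 675 and 532 CPM at 1 month. It was called there at 6 months (0.66), with 782 and 511 CPM in the Rgs5-led cluster alone, and in endothelial-like cells at 6 months (462 against 299 CPM, 0.63). At 1 month the calls were in delta-like cells (162 against 107 CPM, 0.60) and macrophage-like cells (72.7 against 40.3 CPM, 0.85). Each of these Klf9 calls was lost in some setting. The mesenchymal-like one was lost with each cell given the same weight (0.51), after thinning to 2000 UMIs (0.37) and without cycling cells (0.55). The endothelial-like one was lost with doublets kept (0.56). The delta-like one was lost with doublets kept (0.49), relative to the median gene (0.58), with equal weights (0.57) and after thinning (0.49). The macrophage-like one was lost after thinning (0.93). In beta-like cells the genotypes ran opposite ways at the 2 ages without a call, at 297 CPM in CCR2-DTR and 329.5 CPM in WT at 6 months (-0.15) and 216 and 169 CPM at 1 month (0.35).

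Sgk1, a kinase that controls sodium channels, was an endothelial transcript in these islets, at 627 CPM in CCR2-DTR and 658 CPM in WT at 6 months and 668 and 520.3 CPM at 1 month, and was not called there at either age. Its levels in beta-like, alpha-like and delta-like cells were at most 4.29 CPM, below the floor, and Zbtb16 in beta-like and delta-like cells made up the other 2 of the 5 pairs that did not pass. The 1 call of Sgk1, in mesenchymal-like cells at 1 month, compared 34.1 with 15.5 CPM from 51 and 14 UMIs. In macrophage-like cells it was 50.1 and 44.9 CPM at 6 months and 42.0 and 50.7 CPM at 1 month, without a call. Sgk1, the gene with the inverted repeat upstream, was called in 0 classes at 6 months and in 1 class at 1 month, of 3 past the floor. Whether the repeat goes with a call was not tested.

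Cebpd, a transcription factor of acute responses, ran opposite ways between the genotypes at the 2 ages in beta-like cells. Its level was 63.3 CPM (59.5 to 67.3, 1039 UMIs) in CCR2-DTR at 6 months, 158 CPM (150.5 to 166, 1536 UMIs) in WT at 6 months, 27.6 CPM (25.5 to 29.8, 622 UMIs) in CCR2-DTR at 1 month and 9.18 CPM (8.12 to 10.3, 271 UMIs) in WT at 1 month. The WT libraries held both the highest and the lowest level, and the CCR2-DTR libraries lay between them. CCR2-DTR over WT was 0.400-fold (0.369 to 0.433) at 6 months and 3.00-fold (2.60 to 3.48) at 1 month, both called. At 5000 UMIs per cell, 12.3% of beta-like cells had a Cebpd UMI in CCR2-DTR at 6 months, 25.7% in WT at 6 months, 6.43% in CCR2-DTR at 1 month and 1.63% in WT at 1 month, with 13 to 140 shallower cells left out. The unthinned shares were 44.8%, 71.6%, 16.1% and 7.01%. In WT at 6 months Cebpd was thus spread over many cells, since no thinned cell of that library held more than 4 Cebpd UMIs. In CCR2-DTR at 6 months the most in a thinned cell was 12, of 170 UMIs.

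Apart from cycling cells assigned to it, the beta-like class is made of 3 clusters, and the order of the 4 libraries was the same in each of them. In the Ins1-led cluster Cebpd was 86.2 CPM in CCR2-DTR at 6 months, 213 CPM in WT at 6 months, 33.2 CPM in CCR2-DTR at 1 month and 9.84 CPM in WT at 1 month. In the cluster led by Ucn3, a peptide of mature beta cells, it was 55.7, 159.9, 25.4 and 8.41 CPM in the same order of libraries. In the Car15-led cluster the 6-month libraries were closer, at 53.4 and 72.0 CPM, against 24.3 and 8.17 CPM at 1 month.

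Gamma-like cells had 64.4 and 71.4 CPM in CCR2-DTR and WT at 6 months, and 40.5 and 32.7 CPM at 1 month. The libraries stood in the same order as in beta-like cells, over a narrower range. Gamma-like cells were described by level only, so the order of the genotypes within an age is not established there. Delta-like cells had 30.1 CPM in CCR2-DTR and 28.6 CPM in WT at 6 months, which counting error does not separate (0.08, -0.37 to 0.52), and 23.0 and 13.4 CPM at 1 month, a call (0.78). Alpha-like cells had more Cebpd in CCR2-DTR at both ages, 45.2 and 27.9 CPM at 6 months and 26.2 and 15.5 CPM at 1 month, called at both (0.69 and 0.76). Macrophage-like cells had less at 6 months (49.2 against 77.2 CPM, -0.65) and more at 1 month (67.0 against 39.0 CPM, 0.78), both called, though the 6-month difference was -0.09 with doublets kept and -0.08 with each cell given the same weight. The 1-month call was lost in both of these settings (0.72 and 0.58). Mesenchymal-like cells had 337 and 160.3 CPM at 6 months and 238 and 85.5 CPM at 1 month, called at both ages (1.07 and 1.48). Within their Rgs5-led cluster the values were 196 and 102 CPM at 6 months and 103 and 63.1 CPM at 1 month. Within the Col3a1-led cluster they were 477 and 533 CPM, the WT value from 5 cells and 22 UMIs, and 479 and 124 CPM. Endothelial-like cells had 93.4 and 82.0 CPM at 6 months and 81.5 and 54.6 CPM at 1 month, not called. WT at 1 month was the lowest library for Cebpd in 7 of 7 classes.

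Cebpb, which encodes a factor related to the Cebpd protein and is a gene of macrophages and of acute responses, was 231 and 262 CPM in macrophage-like cells of CCR2-DTR and WT at 6 months and 261 and 192 CPM at 1 month, without a call. Endothelial-like cells had 145 and 118 CPM at 6 months and 84.4 and 42.7 CPM at 1 month, a call at 1 month (0.98). Mesenchymal-like cells had 333 and 180.0 CPM at 6 months, a call (0.89), and 233 and 179.9 CPM at 1 month, and within their Rgs5-led cluster 283 and 174 CPM at 6 months. Beta-like cells were within 45.9 to 55.9 CPM in the 4 libraries.

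**Figure D3:**
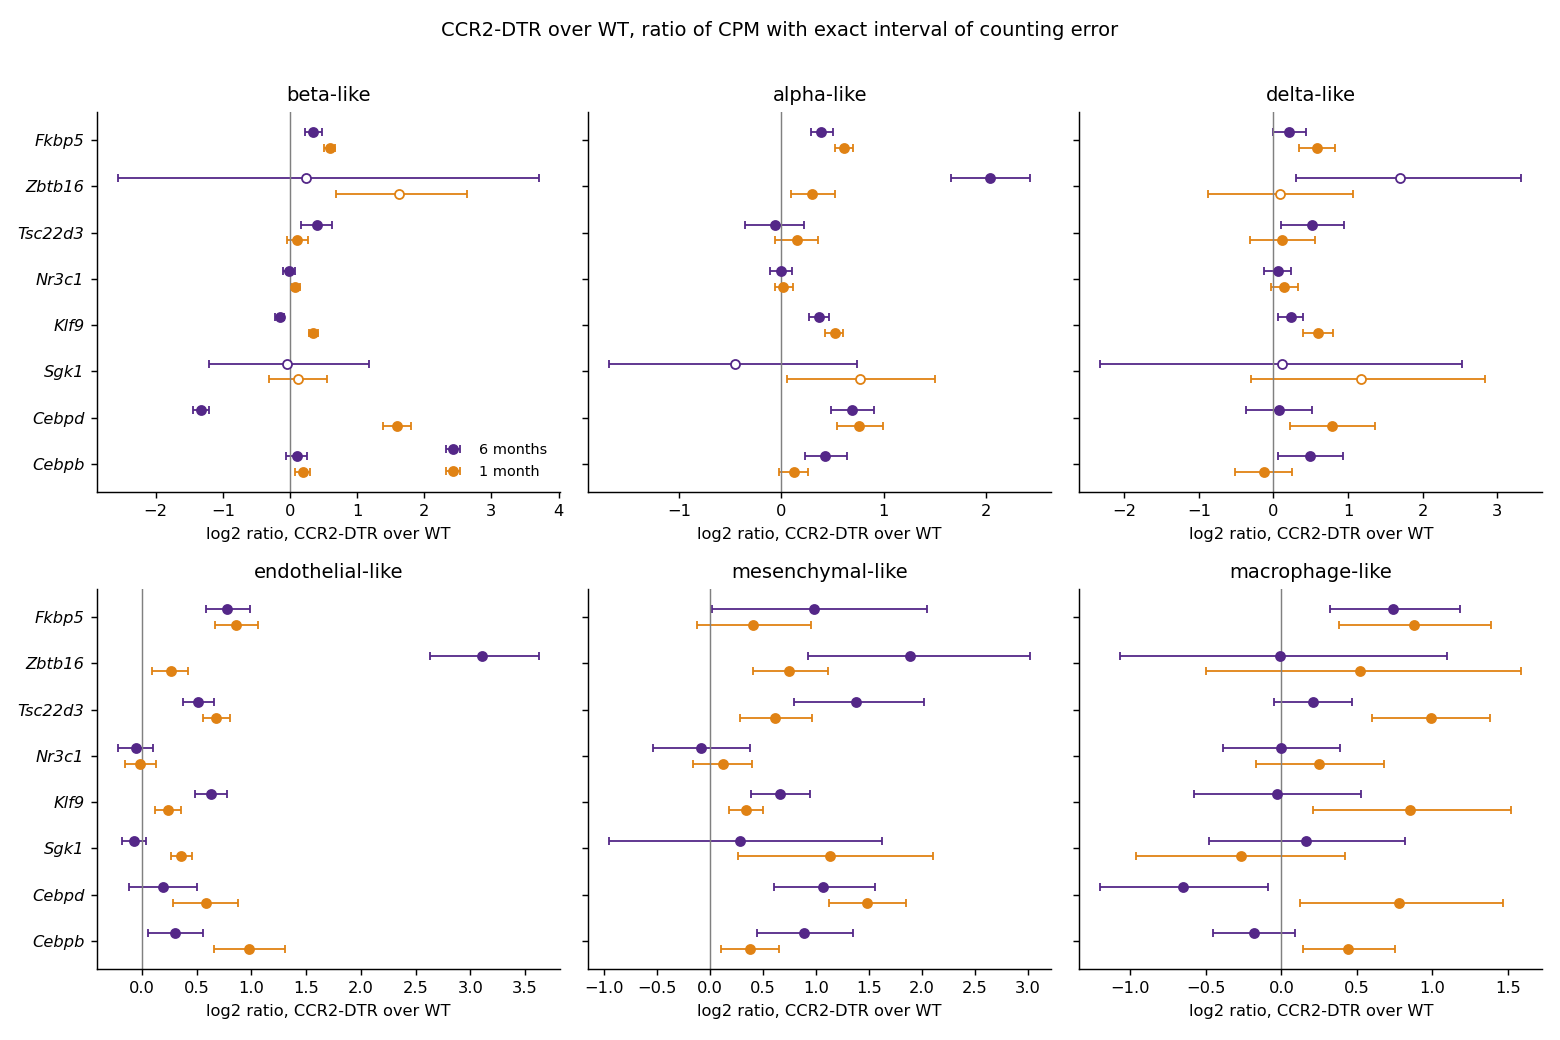
Log2 ratio of CCR2-DTR over WT for each gene and class at 6 months and at 1 month, with exact conditional 95% intervals (counting error only). Fkbp5 ratios are above 0 in every class at both ages, Zbtb16 in endothelial-like cells is at 3.11 at 6 months and 0.26 at 1 month, and Cebpd in beta-like cells is at -1.32 at 6 months and 1.59 at 1 month.

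The comparisons between ages use the same 4 libraries again, so a library that stands apart for a gene enters both its genotype ratio and its age ratio. In CCR2-DTR, 3 of 43 pairs were called higher at 6 months than at 1 month and 0 lower, with 4.71% and 6.95% of 57602 pairs of all genes called higher and lower. In WT, 10 of 43 pairs were called higher and 4 lower, with 4.17% and 4.93% of 56896 pairs. The 3 calls in CCR2-DTR were Cebpd in beta-like cells (2.30-fold, 2.08 to 2.54), Cebpd in alpha-like cells (1.72-fold) and Cebpb in endothelial-like cells (1.72-fold). The WT calls were Cebpd in all 6 classes, from a log2 ratio of 0.59 in endothelial-like to 4.11 in beta-like cells (17.2-fold, 15.1 to 19.7), Klf9 in beta-like cells (329.5 against 169 CPM, 1.95-fold) and delta-like cells (1.63-fold), Tsc22d3 in macrophage-like cells (2.41-fold), and Cebpb higher in endothelial-like (2.75-fold) and lower in alpha-like cells (0.621-fold). Zbtb16 gave the other 3 lower calls in WT, at log2 ratios of -3.26 (-3.77 to -2.78) in endothelial-like, -1.70 in mesenchymal-like and -1.59 in alpha-like cells, while its CCR2-DTR ratios were -0.40, -0.57 and 0.14. Of the WT calls of Cebpd, the macrophage-like one (0.98) was lost with doublets kept (0.30), each cell given the same weight (0.09) or thinning to 2000 UMIs (0.76). The endothelial-like one (0.59) was lost with each cell given the same weight (0.37), after thinning to 2000 UMIs (0.60) and without cycling cells (0.58). The mesenchymal-like one (0.91) was lost after thinning to 2000 UMIs (0.60). Fkbp5 was not called with age in any class, with log2 ratios up to 0.32 in CCR2-DTR and 0.48 in WT. Whether the age ratios differ between genotypes could not be tested with 1 library each. The median ratio over all genes was near 1 in each class except macrophage-like cells, where its log2 was -0.21 in CCR2-DTR and -0.15 in WT.

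**Figure D4:**
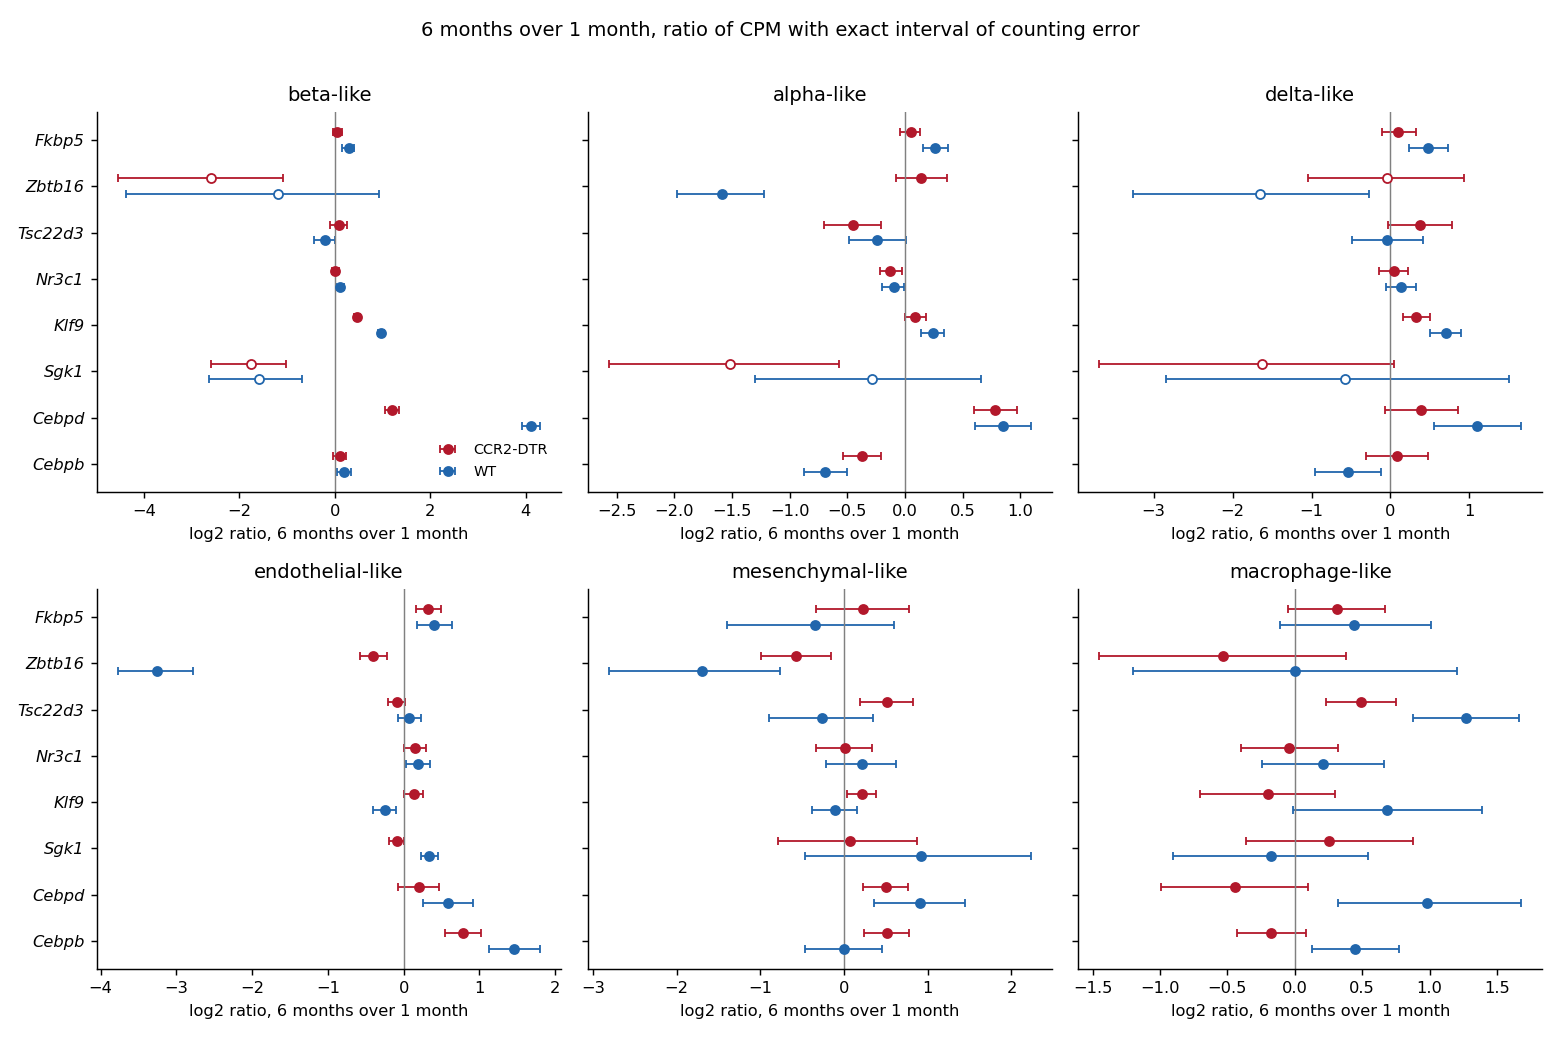
Log2 ratio of 6 months over 1 month for each gene and class in CCR2-DTR and in WT, with exact conditional 95% intervals (counting error only). Cebpd in WT is above 0 in all 6 classes and reaches 4.11 in beta-like cells, and Zbtb16 in WT endothelial-like cells is at -3.26.

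Fkbp5, Zbtb16, Tsc22d3 and Cebpd had ratios of CCR2-DTR over WT on the same side of 1 in every class at 1 month, and in some classes at 6 months, though many single ratios were not called. At 1 month all 4 ratios were above 1 in each of the 6 classes, where 53.6% of all single pairs were. The genes were chosen on these libraries and the classes share them, so nothing is read from how far the 4 genes stand above that share. Those called numbered 2 in beta-like, 2 in alpha-like, 1 in delta-like, 2 in endothelial-like, 3 in mesenchymal-like and 3 in macrophage-like cells. Several of these calls were lost in other settings, such as Tsc22d3 in mesenchymal-like (0.38) and endothelial-like cells (0.58) after thinning to 2000 UMIs. Among the ratios not called, Zbtb16 in beta-like and delta-like cells was below the floor. The intervals of Tsc22d3 in the 3 endocrine classes, Fkbp5 in mesenchymal-like cells and Zbtb16 in macrophage-like cells included 1. At 6 months, where 46.6% of all pairs were above 1, the 4 ratios were above 1 in mesenchymal-like cells (4 called), endothelial-like cells (2 called) and delta-like cells (0 called, with Cebpd at 0.08 and Zbtb16 below the floor). In beta-like cells 3 were above 1 with 0 called, and Cebpd was called lower. In alpha-like cells 3 were above 1 with 2 called. In macrophage-like cells 2 were above 1 with 1 called and Cebpd called lower. Of the 4 mesenchymal-like calls at 6 months, those of Fkbp5 (0.30) and Zbtb16 (0.81) were lost after thinning to 2000 UMIs. The Col3a1-led cluster was 34.3% of that class in CCR2-DTR and 8.62% in WT. Within the Rgs5-led cluster Zbtb16, Tsc22d3 and Cebpd were higher in CCR2-DTR at 6 months and Fkbp5 was not. Over 28 points (7 classes by 4 libraries, each class centred on its own mean of log2(CPM + 10)), the Pearson correlation was 0.75 for Fkbp5 with Tsc22d3, 0.47 for Fkbp5 with Cebpd, 0.41 for Zbtb16 with Tsc22d3, 0.34 for Fkbp5 with Zbtb16, 0.31 for Tsc22d3 with Cebpd and 0.02 for Zbtb16 with Cebpd. The points share 4 libraries, their depth and their free RNA, so these values describe how 4 libraries order the genes and carry no p-value. Klf9 followed Cebpd (0.80) and Fkbp5 (0.77) more closely than Cebpd followed Fkbp5.

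**Figure D5:**
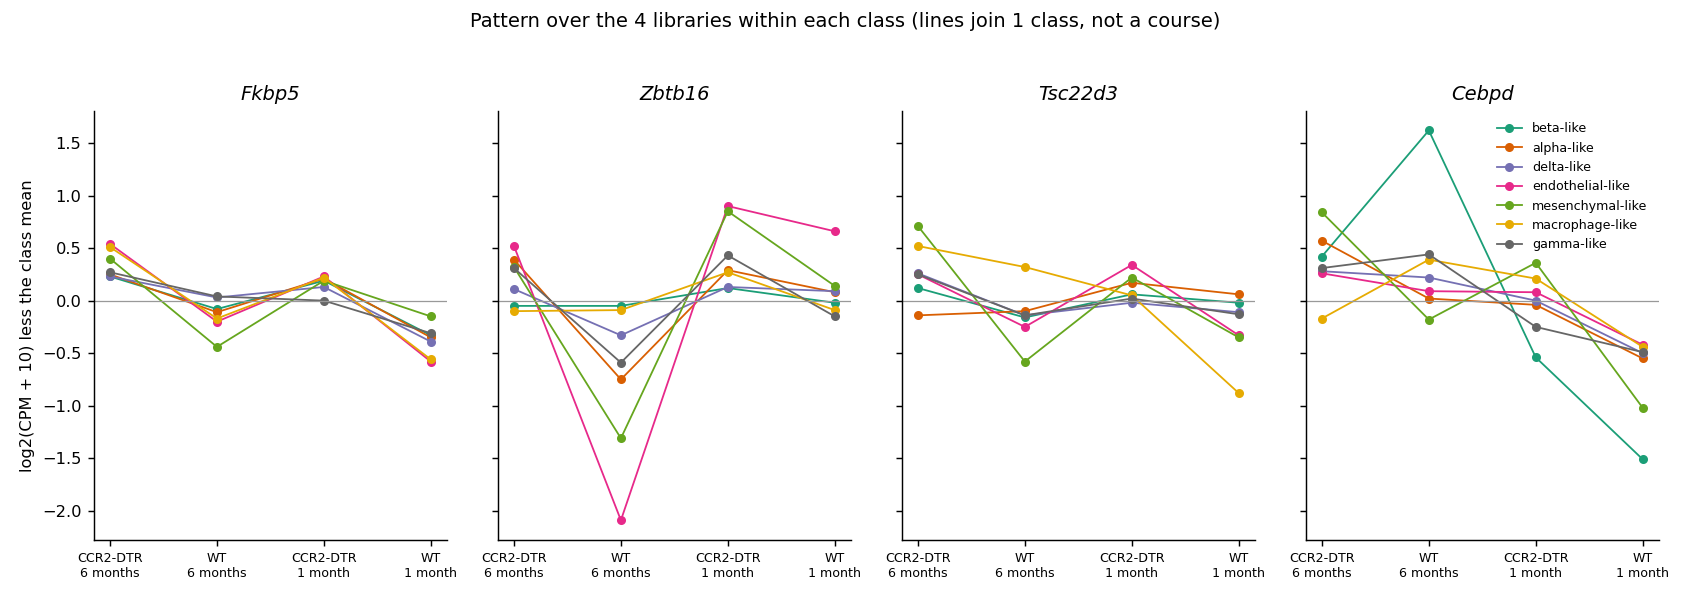
Class-centred level, log2(CPM + 10) less the class's mean over the 4 libraries, of Fkbp5, Tsc22d3, Zbtb16 and Cebpd, 1 line per class. Fkbp5 is lowest in WT at 1 month in 6 of 7 classes, Cebpd in 7 of 7, and Zbtb16 in endothelial-like, mesenchymal-like and alpha-like cells is lowest in WT at 6 months.

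Whether the 4 genes were high in the same cells was looked at within each library. In beta-like cells thinned to 5000 UMIs, all 26 ratios that had UMIs on both sides, of 1 gene's level in cells with against without a UMI of another, had intervals that included 1, and the correlation over cells was between -0.04 and 0.24. The 0.24 was that of Tsc22d3 with Cebpd in CCR2-DTR at 6 months, and it was 0.02 at 2000 UMIs. Of the 26 ratios, 8 lay outside the 5th to 95th percentiles of the same ratio over all genes past 50 CPM. In beta-like cells Tsc22d3 and Zbtb16 did not reach 50 CPM in any library, nor did Cebpd at 1 month. For these the percentiles come from genes of higher level. Cebpd in beta-like cells with a Fkbp5 UMI against those without was 59.6 and 57.0 CPM in CCR2-DTR at 6 months, 143 and 133 CPM in WT at 6 months, 30.7 and 25.6 CPM in CCR2-DTR at 1 month and 9.80 and 7.08 CPM in WT at 1 month. In endothelial-like cells thinned to 2000 UMIs, 2 of 45 such ratios lay outside those percentiles. There 2 of the 45 intervals lay above 1 and 1 below. The 2 above 1 were Tsc22d3 in cells with against without Fkbp5, at 586 and 426 CPM in CCR2-DTR at 6 months (log2 ratio 0.46, 0.12 to 0.80) and 424 and 323 CPM in WT at 1 month (0.39, 0.03 to 0.74). Both ratios lay inside the percentiles of all genes (-0.69 to 0.62 and -0.69 to 0.54). The same ratio was -0.04 in CCR2-DTR at 1 month and -0.08 in WT at 6 months, so it did not hold in every library. The interval below 1 was that of Zbtb16 in cells with against without Cebpd in WT at 1 month, at 113 and 215 CPM (-0.92, -1.95 to -0.05), and the other libraries gave -0.02 to 0.54. The -0.92 also lay inside the percentiles of all genes (-1.02 to 0.74). Counts this sparse limit what a correlation over cells can show.

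The genes whose class-centred pattern was most like each of the 4 were taken from 2181 genes of at least 50 CPM in some library of each class. For Fkbp5 they were Ctrb1 (0.90), Nfkbia (0.82), Klf9 (0.77), Rps6 (0.66) and Lnpep (0.66), of which Ctrb1 encodes chymotrypsinogen of the exocrine pancreas and Nfkbia an inhibitor of NF-kB. For Tsc22d3 they were Resf1, Fkbp5, Picalm, Eif3e and Rpl3 (0.66 to 0.75), for Zbtb16 Tcp1, Hspe1, Slc6a6, Selenos and Skp1a (0.65 to 0.71), and for Cebpd Klf9, Txnip, Rpl10, Rpl5 and Nemf (0.68 to 0.80). All of these correlations run over the same 28 points.

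Acinar RNA moved with genotype across the same libraries. A list of 16 acinar genes summed to 373 CPM in beta-like cells of CCR2-DTR and 42.9 CPM of WT at 6 months, and to 265 and 16.3 CPM at 1 month, and in endothelial-like cells to 903 and 104 CPM and to 376 and 25.6 CPM. Of its pairs with a class past the floor, 77 of 79 were called higher in CCR2-DTR at 6 months and 72 of 75 at 1 month. Delta-like cells at 1 month were the exception in the sum, with 615 CPM in CCR2-DTR and 1637 CPM in WT. Zg16 alone made up 11.3 CPM of this in CCR2-DTR and 1315 CPM in WT, while 10 of the 13 listed genes past the floor there were called higher in CCR2-DTR. Acinar-like cells held 21, 6, 51 and 16 UMIs of Fkbp5 in the CCR2-DTR 6-month, WT 6-month, CCR2-DTR 1-month and WT 1-month libraries. They held 31, 5, 75 and 42 UMIs of Zbtb16 and 240, 25, 358 and 144 UMIs of Tsc22d3, from 14, 8, 69 and 49 cells. The same list took 7909, 169462, 4287 and 60769 CPM in these cells. The genes that led their cluster included the ductal markers Spp1 and Krt19, so their levels are not taken as a measure of what acinar RNA carries. The part of acinar RNA in the differences of these genes was not tested.

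A list of 15 immediate early and dissociation genes summed to 2151 and 1949 CPM in beta-like cells of CCR2-DTR and WT at 6 months and 2153 and 2000 CPM at 1 month. In alpha-like cells it summed to 6534 and 4053 CPM and to 5783 and 6243 CPM. At 6 months 30 of its 81 pairs (37.0%) were called higher in CCR2-DTR and 0 lower, against 2.95% and 2.64% of all pairs. At 1 month 2 of 83 (2.41%) were called higher and 7 (8.43%) lower, against 2.59% and 1.79%. Its part in the 6-month differences of the 8 genes was not tested. At 6 months mitochondrial reads above the limit removed 23.9% of barcodes in CCR2-DTR and 12.2% in WT, and at 1 month 18.4% and 9.37%. Markers of other classes differed between the genotypes in some classes. In mesenchymal-like cells macrophage markers summed to 199 CPM in CCR2-DTR and 6.54 CPM in WT at 6 months and to 28.8 and 141 CPM at 1 month. Endothelial markers there summed to 79.6 and 49.1 CPM and to 74.2 and 328 CPM. In macrophage-like cells mesenchymal markers summed to 43.5 and 18.2 CPM at 6 months and to 28.4 and 216 CPM at 1 month. In delta-like cells B-cell markers summed to 4347 and 7.70 CPM at 6 months and to 22.0 and 13.4 CPM at 1 month. Endothelial markers were at most 20.5 CPM in the 3 endocrine classes compared. The part of these transcripts in the differences of the 8 genes was not tested.

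A list of 28 other genes known to respond to glucocorticoids, drawn up with earlier results of these data known, had 112 pairs past the floor at 6 months, of which 26 were called higher in CCR2-DTR (23.2%) and 2 lower (1.79%), against 2.95% and 2.64% of all pairs. At 1 month 24 of 114 pairs were called higher (21.1%) and 7 lower (6.14%), against 2.59% and 1.79%. By class its median log2 ratio was 0.08 to 0.56 at 6 months and -0.08 to 0.27 at 1 month, and that of all genes -0.06 to 0.01 and 0.00 to 0.07. Per1, a clock gene and a direct target of the receptor, was called higher in all 6 classes at 1 month and in 0 at 6 months, and in beta-like cells it was 27.1 and 25.7 CPM at 6 months and 27.5 and 12.9 CPM at 1 month. Errfi1, a feedback inhibitor of EGF receptor signalling, was 57.3 and 83.0 CPM in beta-like cells of CCR2-DTR and WT at 6 months and 48.0 and 21.8 CPM at 1 month, called at 1 month. The metallothionein genes Mt1 and Mt2 went the other way at 1 month in beta-like cells, with 332 and 601 CPM of Mt1 and 56.7 and 95.4 CPM of Mt2 in CCR2-DTR and WT. Cdkn1a, a cell cycle inhibitor, was 86.8 and 49.8 CPM in beta-like cells at 6 months, called higher, and 72.1 and 74.9 CPM at 1 month. Of 14 clock genes, 6 of 61 pairs were called higher (9.84%) and 5 lower (8.20%) at 6 months, and 1 of 58 higher (1.72%) and 2 lower (3.45%) at 1 month, beside the shares of all pairs given above. The time of day at which islets were collected is not given in the sources used here.

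Among 9 feedback genes of JAK-STAT signalling, 7 of 41 pairs were called higher in CCR2-DTR (17.1%) and 1 lower (2.44%) at 6 months, against 2.95% and 2.64% of all pairs. At 1 month 4 of 41 were called higher (9.76%) and 1 lower (2.44%), against 2.59% and 1.79%. Cish, a feedback inhibitor of cytokine and growth hormone signalling, was 23.8 CPM in beta-like cells of CCR2-DTR at 6 months, 124.9 CPM in WT at 6 months, 24.2 CPM in CCR2-DTR at 1 month and 10.5 CPM in WT at 1 month. Those libraries stand in the same order as for Cebpd at the top and the bottom, with WT at 6 months highest and WT at 1 month lowest.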

How the data were processed

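UMI counts per gene and barcode were deposited for 4 libraries, and per the submitters' processing notes the authors used Cell Ranger 5.0.1 and mm10. The sources used here do not state the annotation release or the treatment of introns. The other deposited files (unit: other) name barcodes and genes and hold no measurement.

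Kept barcodes had at least 1000 UMIs and 500 genes and no more than 15% mitochondrial UMIs, which left 3638 to 8727 cells per library (60315217 to 121292320 deposited UMIs). Doublets were removed at a Scrublet score above 0.25, 82 to 372 per library, because the automatic threshold marked 1 barcode in 1 library. Counts were scaled to 10000 per cell, and 1941 variable genes (the 8 genes and the listed genes kept out), 30 principal components, 15 neighbours and Leiden resolution 1 gave 22 clusters (scanpy 1.11.5, leidenalg 0.10.2, igraph 0.11.9), with no batch correction because library and group coincide. Clusters took the name of the class whose markers stood out, and those with fewer than 3 such markers, few UMIs or markers of several classes stayed unnamed.

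UMIs were summed per library and class. Levels have exact Poisson intervals and ratios exact conditional ones, at 95% (scipy 1.17.1). No test between groups was run. The method was tested on simulated data. The members and lists were chosen with earlier results of these data known. All 8 members were named. From each list the 4 called genes with the largest log2 ratio in beta-like cells were open to naming per comparison, Hsd11b1, Hsd11b2 and Nr3c2 were added, and for 4 members the 5 genes of most similar pattern. Hormone-gene scaling, filters, thinning and resolution were varied.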

Additional observations from a re-analysis of the deposited data

Results flagged for a closer look

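Cebpd in beta-like cells was drawn out because its ratio of CCR2-DTR over WT had opposite directions at the 2 ages, and the log2 ratio at 6 months less that at 1 month was -2.91. Cebpd in macrophage-like cells was drawn out for the same reason, with a log2 difference of -1.43, from 60 and 55 UMIs in CCR2-DTR and WT at 6 months and 59 and 30 UMIs at 1 month. Its 6-month log2 ratio of -0.65 was -0.09 with doublets kept and -0.08 with each cell given the same weight. Its 1-month call (0.78) was lost in both settings (0.72 and 0.58) and after thinning to 2000 UMIs (0.87). With 1 library per group, neither difference was tested.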

How the results depend on the processing

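No paired analysis was possible because each group is 1 library. All 48 called ratios kept their direction under the 9 alternatives that gave a new ratio, and 27 (cells thinned to 2000 UMIs) to 48 (CPM over all UMIs) of them were still called. With cells thinned to 2000 UMIs the calls of CCR2-DTR over WT numbered 8 at 6 months, against 14 as reported, and 11 at 1 month, against 17. At a minimum of 2-fold they numbered 6 at 6 months and 3 at 1 month, and the calls of 6 months over 1 month 1 in CCR2-DTR and 7 in WT, against 3 and 14. The 3 calls with age in CCR2-DTR became 5 with at most 10% mitochondrial UMIs, 8 with doublets kept, 7 with CPM over all UMIs, 6 with each cell given the same weight and 6 without the CPM floor. The Fkbp5 ratio in beta-like cells at 1 month, at 0.59 on the log2 scale, fell under 1.5-fold in 5 settings (0.54 to 0.58), 1 of which, without the Car15-led beta-like cluster, was chosen after seeing the data. Pairs within endothelial-like cells were also added after seeing the data. The Zbtb16 and Fkbp5 ratios in mesenchymal-like cells at 6 months were 0.81 and 0.30 after thinning, and neither was then called. In these classes the depth limits the result to what 10 and 12 WT UMIs can show. Free RNA could not be measured, since empty droplets were not used here.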
